A study of Drosophila melanogaster with 2 samples.

Results

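The 10 Atg genes Atg1, Atg5, Atg7, Atg8a, Atg8b, Atg9, Atg13, Atg17, Atg18a and Atg101 encode parts of the machinery of autophagy, and all 10 were found by symbol among 13945 protein-coding genes of the dm6 annotation. They were picked as named genes of the pathway, a rule that uses no peak value, although earlier results of these data were known. Binding of CG34367, a homeodomain protein, at these genes was read from ChIP-seq peak lists made with whole pupae of Drosophila melanogaster at an age of 24 hours. They belonged to 1 transgenic line that stably carries CG34367 with GFP at its C-terminus, and chromatin cut to 200 to 800 bp was precipitated with an antibody against GFP. There was 1 group of 2 libraries, biological replicates 1 and 2, with no untagged or untreated group, so no test between conditions exists. The labels do not say which promoter drives the tagged protein, and whole animals mix all tissues, so a peak cannot be placed in a tissue. Each library had a deposited list of 30000 peaks, as did the pool of both. A joint list, kept by a threshold on irreproducible discovery rate, held 6270 peaks, which were the 6270 strongest of the pooled list. How many animals and reads stand behind each library is not stated, so depth is unknown.

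Autophagy delivers cytoplasm to the lysosome inside a double membrane, the autophagosome. The Atg1 kinase complex starts the process, Atg9 vesicles and phosphoinositide-binding proteins of the Atg18 family help the membrane to grow, and a ubiquitin-like system couples Atg8 to its lipid. In Drosophila, pulses of the steroid ecdysone induce autophagy in larval tissues such as fat body, midgut and salivary gland as they are remodelled or removed at metamorphosis. Homeodomain proteins bind short AT-rich sites, often with the core TAAT, which reads ATTA on the other strand.

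Sequence is shown first at 5 joint peaks, the strongest of Atg17, Atg5 and Atg1 and both of Atg8a. The other joint peaks are not shown, among them the Atg7 promoter peak, whose window held 3 TAAT or ATTA. Each is read from the plus strand of the RefSeq assembly that corresponds to dm6 and written 5′ to 3′, with each TAAT or ATTA in capitals. Windows run 50 bp to either side of the summit, the position of highest signal.
Atg17 promoter, chr3R:5669393-5669493: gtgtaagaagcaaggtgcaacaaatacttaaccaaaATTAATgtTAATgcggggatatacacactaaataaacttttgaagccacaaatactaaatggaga
Atg8a first summit, chrX:10767597-10767697: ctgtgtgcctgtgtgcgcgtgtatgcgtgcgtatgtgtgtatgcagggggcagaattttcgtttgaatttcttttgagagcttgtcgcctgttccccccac
Atg8a second summit, chrX:10767801-10767901: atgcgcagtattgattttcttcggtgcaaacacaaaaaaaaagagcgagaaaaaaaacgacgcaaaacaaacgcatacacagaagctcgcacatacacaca
Atg5 intron, chrX:7319220-7319320: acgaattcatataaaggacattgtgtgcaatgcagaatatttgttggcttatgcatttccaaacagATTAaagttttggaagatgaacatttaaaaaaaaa
Atg1 intron, chr3L:12793132-12793232: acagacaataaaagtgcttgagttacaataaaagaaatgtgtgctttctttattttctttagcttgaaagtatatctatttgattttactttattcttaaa
The window at the Atg17 promoter held 3 matches, with ATTA and TAAT overlapping in the run ATTAAT and a further TAAT just after it. Both Atg8a windows and the Atg1 window held 0, and the Atg5 window held 1. The Atg8a windows differed from each other in base composition, with 52.5% GC at the first summit and 39.6% at the second.

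Of the 10 genes, 6 carried a joint summit within 500 bp of a transcription start site (TSS): Atg7, Atg8a, Atg9, Atg13, Atg17 and Atg18a. Among all protein-coding genes 17.4% did so. Counting summits anywhere inside the gene as well, 8 of 10 carried one, against 22.8% of all genes, and Atg1 and Atg5 were the additional ones. Atg8b and Atg101 carried 0 in any of the 4 lists. The 8 genes held 13 joint summits, 7 of them within 500 bp of a TSS and 6 deeper in introns. By position within the gene carrying them, 8 of the 13 were in introns, 2 in 5' UTRs and 3 just upstream of the gene. Signal at the 13 peaks, a score per peak from the authors' caller, ran from 148 to 672 with a median of 275, beside a median of 248 over the joint list, where the strongest peak had 4557. The Atg genes had a median length of 3862 bp and all protein-coding genes 2166 bp, and longer genes offer more room for summits. Per 10 kb of gene, counting only summits inside it, the 10 together held 1.65 joint summits and all protein-coding genes together 0.431. Long genes weigh most in such totals, so they do not compare genes of like length.

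**Figure D1:**
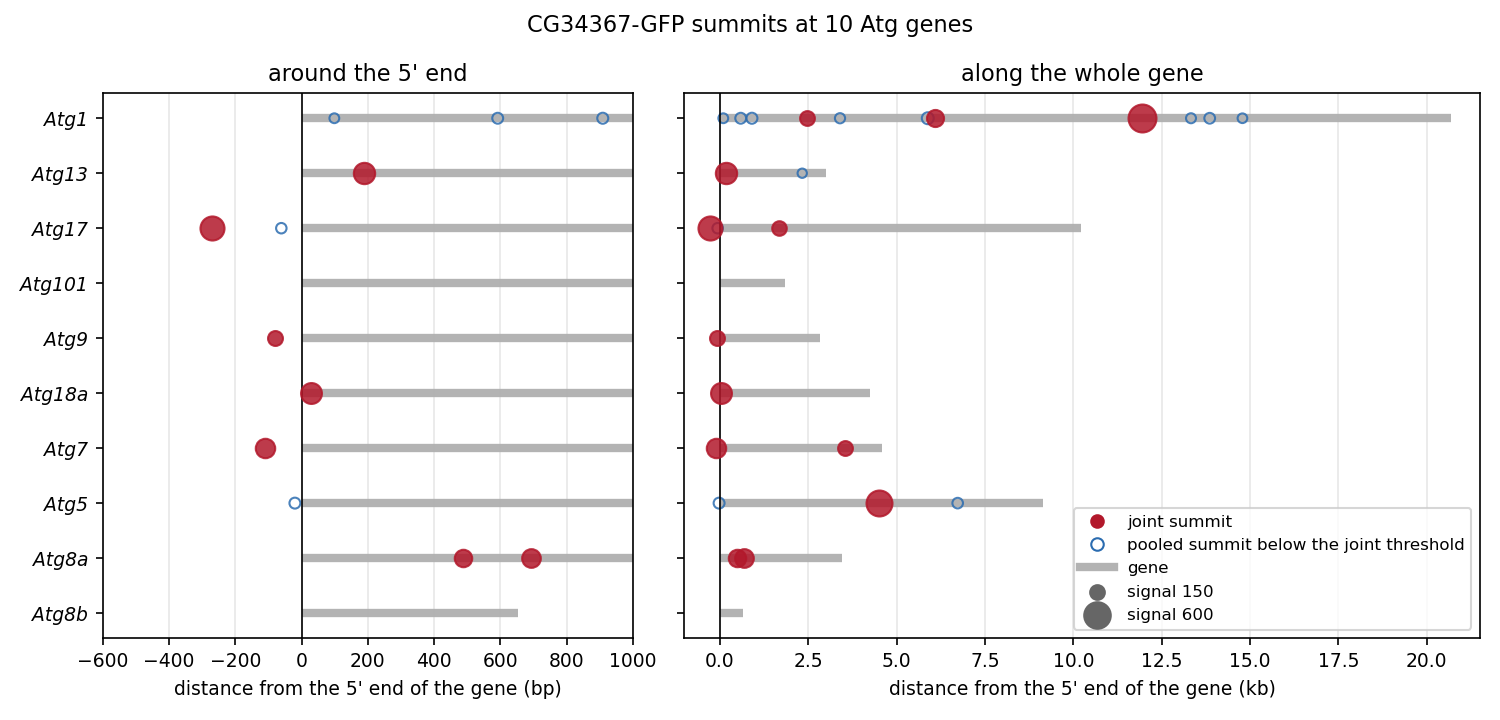
Position of summits at each Atg gene, measured from the 5' end of the gene in the direction of transcription (left in bp, right in kb). Filled circles are joint summits, open circles pooled summits below the joint threshold, and circle area grows with signal. The promoter summits of Atg7, Atg9, Atg13, Atg17 and Atg18a lay between 270 bp upstream and 189 bp downstream of the 5' end, the joint summits of Atg1 and Atg5 lay from 2471 to 11934 bp inside the gene, and Atg101 and Atg8b had no summit drawn.

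The promoter count depended on how a summit was credited to a gene. Of the 6, Atg7, Atg9, Atg13 and Atg18a had one no farther than 250 bp from a TSS, where 13.4% of all genes did. When a summit counted only for the protein-coding gene with the nearest TSS, 4 of 10 kept one, Atg8a, Atg9, Atg13 and Atg18a, against 13.5% of all genes. When only joint peaks with an overlapping peak in each library's full list counted, a check added after the data were seen, Atg7, Atg8a, Atg17 and Atg18a had one, against 15.9% of all genes. Atg18a was the only 1 of the 10 counted under all of these. The strongest 6270 peaks of replicate 1 alone gave 5 genes (Atg13 missing, 18.3% of all genes), and those of replicate 2 alone also gave 5 (Atg9 missing, 17.1% of all genes).

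**Figure D2:**
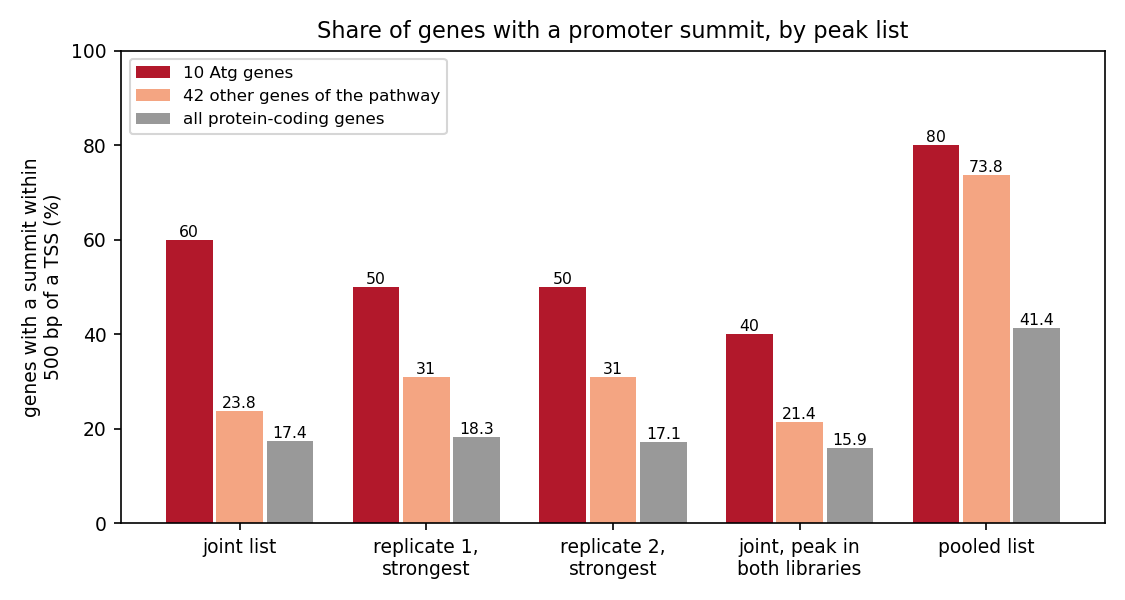
Percentage of genes with a summit within 500 bp of a TSS, for the 10 Atg genes, 42 other genes of the pathway and all protein-coding genes, by peak list. The bars of the Atg genes run from 40% (joint peaks found in both libraries) to 80% (pooled list), and those of all genes from 15.9% to 41.4%. With 10 genes, 1 gene moves a bar by 10 percentage points.

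The kinase complex that starts autophagy was covered unevenly. Atg1 (FBgn0260945), the kinase itself and the longest of the 10 genes at 20688 bp (3L, 12784429 to 12805116), had 3 joint summits, all intronic. The strongest of all 13 peaks lay there, 11934 bp from the TSS (3L, 12793067 to 12793370, joint rank 679). Its signal was 222 in replicate 1 (rank 1393) and 437 in replicate 2 (rank 397). This position also lies inside CG42709, a gene nested in Atg1, whose TSS is nearer at 1964 bp. The weaker joint summits of Atg1, 6097 and 2471 bp from the TSS, had joint ranks 3601 and 5490. The former had signal 103 in replicate 1 and 105 in replicate 2, at ranks 3842 and 4107, so both libraries placed it alike. The latter stood at rank 6832 in replicate 1 and 4585 in replicate 2. Nearer to the TSS but outside the limit, a joint summit lay 1489 bp upstream of Atg1, inside the neighbour Sap130 (signal 215, joint rank 3738). It ranked 6638 in replicate 1 and 3098 in replicate 2.

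Weaker summits filled in more of Atg1. The pooled list held 11 summits at the gene, the full list of replicate 1 held 5 and that of replicate 2 held 13. Not all of them can be credited to Atg1 alone. Weaker pooled summits also lay inside the nested gene CG42709, 38, 138 and 567 bp from its TSS. At the start site itself the pooled list had a summit 99 bp inside the gene with signal 40.3, rank 22328 and a −log10 q-value of 0.33. Replicate 2 had a peak at that place (101 bp, rank 18907) and replicate 1 had none within 500 bp. The Atg1 promoter was thus marked in 1 library only, and weakly.

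Atg13 and Atg17, the regulatory and scaffold partners of the kinase, both had promoter summits. At Atg17 (FBgn0037363, 3R, 5669713 to 5679930), a joint peak of 231 bp (5669319 to 5669549, rank 1233) had its summit 270 bp upstream of the gene, the position shown above. It had signal 311 in replicate 1, at rank 797, and 185 in replicate 2, at rank 1930. Both libraries held it within 2 bp of the joint summit. The neighbour Xe7 starts 379 bp from Atg17 and runs the other way, and its TSS was the nearer of the pair, at 109 bp. A second joint summit of Atg17, in an intron 1663 bp from the TSS, ranked 5736 in the joint list and had signal 100.5 in replicate 2 (rank 4309) and no overlapping peak in replicate 1.

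At Atg13 (FBgn0261108, 3R, 8349815 to 8352817), the joint summit lay in the 5' UTR, 189 bp from the TSS (peak 8349814 to 8350193, signal 372, rank 1844). No other protein-coding gene starts within 1000 bp upstream on the other strand. Replicate 2 had a peak there with signal 284, rank 1012 and its summit 41 bp from the joint summit. Replicate 1 had none, and its summit nearest to the Atg13 TSS lay 979 bp away with signal 21.7 and rank 27938. Among the 1844 joint peaks of this rank or better, 10 (0.542%), this one included, had no overlapping peak in replicate 1. The limit was set at the rank of this peak. Over all joint peaks the share was 1.98%, and within 500 bp of a protein-coding TSS it was 4.02%. The Atg13 peak therefore rests on replicate 2.

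Atg101, which binds Atg13 in the same complex in other animals, had no summit by this count (FBgn0030960, X, 18791668 to 18793517). The nearest joint summit lay 1741 bp upstream with signal 167, 235 bp from a TSS of the neighbour S6KL, at rank 5280 in replicate 1 and 5078 in replicate 2.

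Both genes of membrane growth had promoter summits. Atg18a encodes a protein that binds phosphoinositides on the growing membrane (FBgn0035850, 3L, 8186857 to 8191118). Its joint peak (8186760 to 8186957, signal 356, rank 1963) had the summit 29 bp from a TSS, the closest of the 13. Signal was 233 in replicate 1 (rank 1287) and 119 in replicate 2 (rank 3484), and the summits of both libraries fell within 13 bp of the joint summit. The nuclear receptor gene ERR starts 186 bp away on the other strand. A further joint summit, 959 bp from the nearest TSS of Atg18a and inside ERR, had signal 204, rank 2983 in replicate 1 and rank 7422 in replicate 2. Atg9, which encodes the transmembrane protein of the seed vesicles (FBgn0034110, 2R, 16294400 to 16297232), had a summit 80 bp upstream of its TSS and the divergent neighbour CG7747 starts 270 bp from it (peak 16294130 to 16294509, signal 157, rank 5356). Here the libraries parted the other way. Replicate 1 had a peak with signal 120 and rank 3201, while the nearest summit of replicate 2 lay 4215 bp from the TSS.

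In the conjugation system, the E1-like enzyme gene Atg7 carried a joint promoter summit, while Atg5, whose product is joined to Atg12, had only weaker promoter summits below the joint threshold. At Atg7 (FBgn0034366, 2R, 18620466 to 18625044) the joint peak was 106 bp wide, the narrowest of the 13 (18625081 to 18625186, signal 301, rank 2443). Its summit lay 111 bp upstream of Atg7 and 94 bp from the TSS of Sec6, an exocyst gene that starts 205 bp away in the opposite direction. Signal was 109 in replicate 1 (rank 3577) and 180 in replicate 2 (rank 1993), with summits 2 and 0 bp from the joint one. The window there was 16.8% GC, the lowest of the 13, and held 3 TAAT or ATTA. The second joint summit of Atg7 lay in an intron, 30 bp from the TSS of the nested gene CG5335. It had signal 127 in replicate 2 (rank 3241) and no overlapping peak in replicate 1.

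The joint summit of Atg5 (FBgn0029943, X, 7314622 to 7323770) was intronic, 4500 bp from the TSS (7319144 to 7319383, signal 573, rank 918), and lies within the much longer gene CG1677, which spans Atg5. The libraries ranked this peak almost alike. It had signal 273 and rank 994 in replicate 1, and signal 292 and rank 966 in replicate 2. The promoter of Atg5 held a pooled summit 20 bp upstream of the TSS, with signal 61.8 and rank 14282, below the joint threshold. Both libraries listed that place among their weaker peaks, at rank 14811 in replicate 1 and 24359 in replicate 2. A far stronger joint peak stood 1279 bp upstream of Atg5, outside the limit (X, 7324872 to 7325202, signal 1304, joint rank 151). It ranked 205 in replicate 1 and 113 in replicate 2, and lay inside the neighbour Dok and CG1677, 835 bp from a TSS of Dok.

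The Drosophila Atg8 genes, whose products coat the autophagosome membrane, stood apart from each other. Atg8a, the broadly used one (FBgn0052672, X, 10764878 to 10768338), has 3 TSS and held 2 joint summits 204 bp apart, both in the first intron of its longest form. The first was 341 bp upstream of the middle TSS (10767457 to 10767836, signal 275, rank 2740). The second was 487 bp downstream of the outer TSS (10767761 to 10767929, signal 233, rank 3388), and the 2 peaks overlapped by 76 bp. The libraries did not share a leading position. Replicate 1 had its strongest summit 32 bp from the first (signal 124, rank 3089) and a weaker one 35 bp from the second (signal 55.1, rank 7847). Replicate 2 had its strongest peak, of signal 192 and rank 1839, with the summit 1 bp from the second, and this same peak is the replicate 2 overlap of both. It also had weaker summits around the middle TSS, 16 bp upstream of it (signal 45.2, rank 10443) and 191 bp downstream (signal 46.0, rank 10253), where neither replicate 1 nor the pooled list had one. The strongest summits of the libraries were 237 bp apart.

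Atg8b, known in Drosophila for its role in the male germline, is 654 bp long (FBgn0038539, 3R, 17724410 to 17725063). No list had a summit in it or within 500 bp of its TSS. The nearest summit of replicate 1 was 708 bp away, that of replicate 2 6955 bp, and that of the joint list 18403 bp.

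Agreement between the libraries was set beside that of the whole joint list. Of all joint peaks, 95.6% had an overlapping peak in each library's full list, and within 500 bp of a protein-coding TSS 92.4% did. Of the 13 peaks at Atg genes, 9 did (69.2%). The other 4 comprised 3 with no peak in replicate 1 (Atg7 at CG5335, Atg13 and the Atg17 intron) and 1 with none in replicate 2 (Atg9). Among the strongest 6270 of each library, 8 of 13 overlapped a peak in both (61.5%, against 74.7%). Within 500 bp of a protein-coding TSS the share of joint peaks was 72.1%. The 8 include both Atg8a peaks, which share 1 replicate 2 peak. The replicate 1 peak nearest to the second Atg8a summit ranked 7847, so that joint peak counted only by overlapping a stronger neighbour. When summits had to be at most 100 bp apart, 6 of 13 had one in both. The share of all joint peaks under that rule was not computed. Signals of different libraries are on scales that are not given, so log2 ratios of replicate 2 to replicate 1 were centred on their median over the 5993 joint peaks found in both, where their SD was 0.75. For the Atg genes the centred ratios ran from -1.01 at Atg18a and -0.79 at Atg17 to 0.93 at the strongest Atg1 peak and 1.76 at the second Atg8a summit. With 1 value per library, no test of a single peak is possible.

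**Figure D3:**
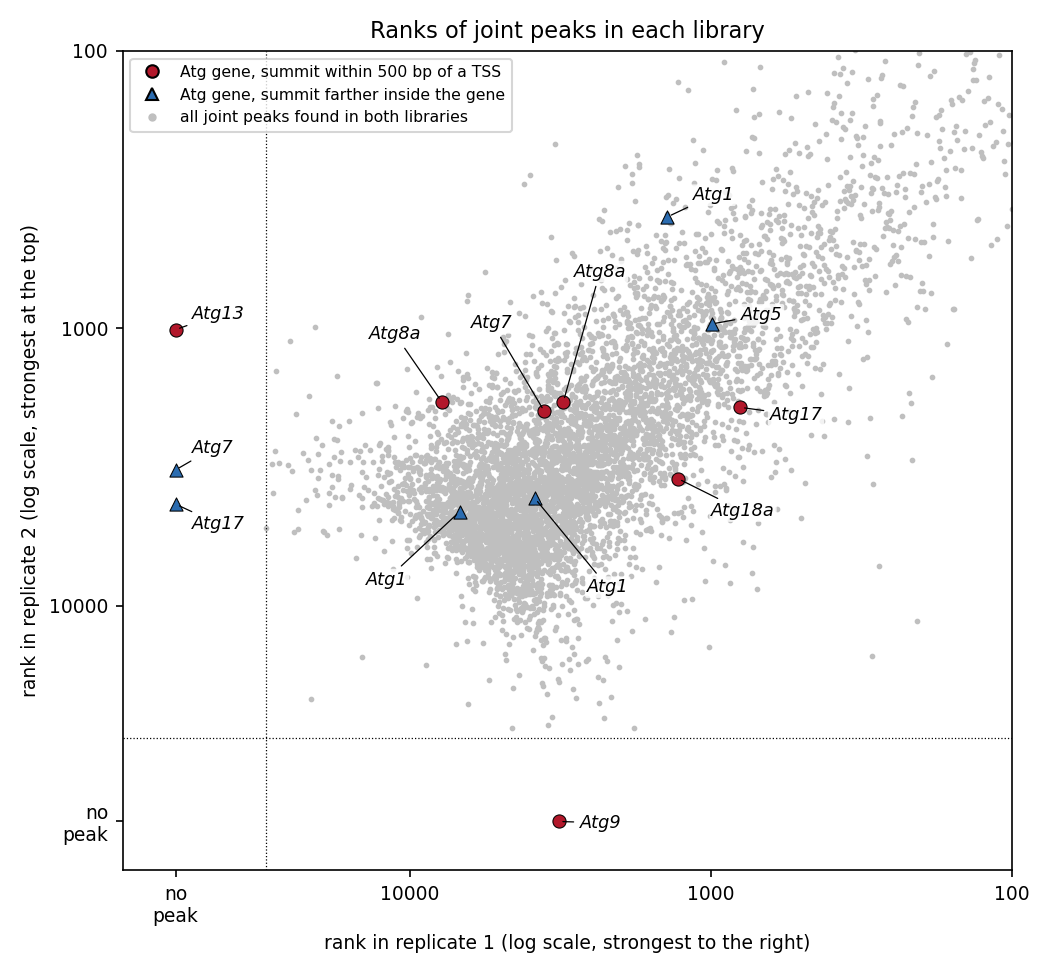
Rank of each joint peak in replicate 1 (x axis) and replicate 2 (y axis), both on log scales with the strongest peaks at the upper right; peaks better than rank 100 are not drawn. Red circles and blue triangles are the 13 peaks at Atg genes, and the 3 beyond the dotted line at the left and the 1 below it had no overlapping peak in that library. The Atg5 point lies at ranks 994 and 966, and the Atg1 point with the highest signal at 1393 and 397.

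Many of these genes have a close neighbour that runs the other way. Another protein-coding gene starts within 1000 bp upstream on the opposite strand at 8 of the 10 genes, against 36.2% of all protein-coding genes. Of those 8, 5 had a joint promoter summit, where 28.2% of all genes with such a neighbour did. Of the 2 without one, Atg13 had a summit and Atg101 did not, where 11.3% of all such genes did. At 2 of the 7 promoter summits, those of Atg7 and Atg17, the nearest protein-coding TSS belonged to the neighbour. Which gene of a pair a summit serves was not tested. The promoter summits lay a median of 189 bp from the TSS of the Atg gene, and those of all genes 164 bp.

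In the lists without the joint threshold, 8 of 10 Atg genes had a pooled promoter summit, against 41.4% of all genes. The same number had one there or inside the gene, against 47.3%. The full list of replicate 1 gave 6 genes (40.7% of all genes) and that of replicate 2 gave 7 (42.9%). Of the 25 pooled summits, 12 were below the joint threshold, and 8 of those were at Atg1, some of them inside CG42709. With a q-value of at most 0.05, 14 of the 25 remained. Under that limit 6 genes had a pooled promoter summit, against 30.1% of all genes, since the promoter summits of Atg1 and Atg5 did not pass.

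The base composition of the 13 windows was compared with that of all joint summits. Median GC content was 39.6%, ranging from 16.8% at the Atg7 promoter to 52.5% at the first Atg8a summit, where the median over all joint windows was 31.7%. At least 1 TAAT or ATTA lay in 6 of the 13 windows (46.2%), against 76.1% of all joint windows. At promoter summits it was 3 of 7, those of Atg7, Atg17 and Atg18a, against 71.2% of all joint summits within 500 bp of a TSS. The longer core TAATTA, which contains both shorter ones and is its own reverse complement, lay in 0 of the 13 windows and in 9.33% of all joint windows. Within 100 bp of the summit only Atg9 had one, against 16.7%. The E-box CACGTG lay in 0 of 13 windows and in 0.59% of all. With only 13 windows, a count of 0 cannot be told apart from a share of 9.33% or of 0.59%. GC-rich windows hold fewer AT-rich words, and the part of base composition in these counts was not tested. No match says only that these letters are not in the window.

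Other genes of the pathway were counted from a list of 42. A joint promoter summit was present at 10 of them (23.8%, against 17.4% of all genes), and a pooled one at 31 (73.8%, against 41.4%). By role, the 10 comprised 3 of 9 genes of initiation and nucleation, 1 of 6 of conjugation, 0 of 5 receptors and adaptors, 5 of 16 of fusion and lysosome, and 1 of 6 upstream kinases. The highest signal was at Atg2, a lipid transfer protein gene (3L, 2773977 to 2774289, signal 655, rank 963 in replicate 1 and 568 in replicate 2), with the summit 262 bp from its TSS and 69 bp from that of CG12093. Rubicon, whose mammalian counterpart inhibits autophagy, followed with signal 392 and a summit 46 bp from the TSS. Atg4b, a protease gene of the Atg8 system, had signal 351 and, like Atg13, no peak in replicate 1 and one in replicate 2 (rank 1855). The summit credited to mTor, the kinase that restrains Atg1, had signal 334 and was nearer to Vha68-1. That of the SNARE gene Snap29 had signal 286 and was nearer to CG5554. The cathepsin gene CtsB had signal 245 with its summit 5 bp from the TSS. The remaining 4 were car, a tethering complex gene (signal 211), the SNARE gene Syx17 (201), the phosphoinositide kinase subunit gene Vps15 (194) and the small GTPase gene Rab7 (143).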

How the data were processed

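The peak lists of 1 group of 2 ChIP-seq libraries were used, 1 per library, 1 for their pool and 1 joint. Per the deposited text descriptions, they are on assembly dm6, the library and pooled lists come from the alignments and 1 further file that also underlies the control-normalized tracks, and the joint list comes from those 3. No source used here names the peak caller. The signal value deposited by the authors is a score per peak of unstated scaling. Peaks were ranked by it within a list. The authors' deposited −log10 q-value is capped, with all joint peaks at the same value, and served only as a limit of 0.05.

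Summits are the deposited start plus the deposited offset, and coordinates are 1-based. Genes and TSS are those of Ensembl release 115, and 10 of the 10 members have the same start and end in the RefSeq gene table. A joint peak was matched in a library to the overlapping peak (at least 1 bp) with the nearest summit. 0 peaks ran past the end of an arm. Of the 42 other pathway genes, 7 were matched through another symbol.

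The members, lists and alternatives were chosen with earlier results of these data known, and 1 alternative was added after these peaks were seen. All 10 members are named, and of the other pathway genes those with a joint promoter summit. No test was run: with 1 group, counts stand beside the same count over all genes. Planted summits were used to check the assignment. Shares are over small numbers of genes and cover no sampling of animals. Python 3.11.15, numpy 2.4.6 and matplotlib 3.10.9 were used.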

Additional observations from a re-analysis of the deposited data

How the results depend on the processing

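The count of 6 genes with a joint promoter summit fell to 4 with a window of 250 bp, to 4 when only the nearest TSS counted and to 4 when the peak had to be found in both libraries (chosen after seeing the data), while all genes went from 17.4% to 13.4%, 13.5% and 15.9%. It was 5 without replicate 1 (17.1% of all genes), 5 without replicate 2 (18.3%) and 5 in the strongest 3135 joint peaks (9.8%). With a window of 1000 bp it was 6 (21% of all genes), as it was with only the 5' end of the gene (14.9%). The 13 joint summits became 8 without replicate 2, 12 without replicate 1 and 7 in the strongest 3135, and ranged from 9 to 14 otherwise. Among the 42 other genes, 10 with a promoter summit became 5 in the strongest 3135, where 9.8% of all genes had one. Their count was 13 without replicate 1 (17.1% of all genes) and 13 without replicate 2 (18.3%). With a window of 1000 bp it was 12 (21%), with only the nearest TSS 8 (13.5%), and otherwise 9 or 10. The count of 0 joint peaks at Atg genes with TAATTA near the summit became 1 with 100 bp on either side, since the wider window holds more sequence. The counts of 8 genes with any joint summit, of 8 with a pooled promoter summit and of 8 peaks among the strongest of both libraries stayed within 1.5 times under each alternative, between 6 and 9. The share of all genes moved as well, from 14.2% to 24.6% for any joint summit. For a pooled promoter summit it ran from 30.1% to 47.7%. No paired analysis was possible because there is 1 group. Read depth is not given, so the precision of a single signal is unknown.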
